A study of Mus musculus with 6 samples.

Results

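The genes described here are 6 dual-specificity phosphatases of the MAP kinases, Dusp1, Dusp2, Dusp4, Dusp5, Dusp6 and Dusp10, and the 3 orphan nuclear receptors Nr4a1, Nr4a2 and Nr4a3. They are 9 of the 31253 genes counted, taken by symbol from the gene table, and stand for the feedback genes of cell activation. They were selected on their levels by cell type and their knockout against control values in these same libraries, so their differences between genotypes are given as description, without a p for any member. Levels were measured by single-cell RNA sequencing (10x Genomics 3′ libraries) of dissociated liver from 6 mice, with 1 library for each mouse. The knockout group was 3 mice of genotype Stingfl/fl Cdh5-Cre+, in which Cre recombinase from the endothelial Cdh5 promoter removes the floxed Sting gene, an adaptor of the cytosolic DNA response. The control group was 3 littermates, Stingfl/fl Cdh5-Cre-, which carry the same floxed gene without Cre. All 6 mice had eaten normal chow until 8 weeks of age and then received western diet with carbon tetrachloride (WD-CCl4) for 12 weeks, a model of metabolic dysfunction-associated steatohepatitis (MASH), so no group shows a liver without injury. Labels call the cells liver sinusoidal endothelial cells, whereas the protocol dissociated whole liver and the libraries hold many cell types.

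As background, MAP kinases relay growth factor, cytokine and stress signals by phosphorylation, and dual-specificity phosphatases remove those phosphates. Their genes are themselves switched on by the pathway, so that each burst of signalling induces its own inhibitors: Dusp6 acts in the cytoplasm on ERK, Dusp5 and Dusp2 act in the nucleus, Dusp1 and Dusp4 are nuclear with wider substrates, and Dusp10 acts mainly on p38 and JNK. The Nr4a receptors are transcription factors that act without a known natural ligand and are set largely by how fast their genes are induced, by antigen receptor, calcium and cAMP signals in lymphocytes and by growth factors and shear stress in vessels. Enzymatic dissociation of tissue also induces many immediate early genes.

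The promoters of the members are shown first because several of them hold letters of signal-responsive sites, and the sites differ from gene to gene. RefSeq windows on GRCm38.p6, from 250 bases before to 50 bases after the gene start, were matched for 8 of the 9 members. They were searched on both strands for the cAMP response element (CRE, TGACGTCA), its half-site TGACG, the AP-1 site TGANTCA, the CArG box of serum response factor, the EGR site GCGGGGGCG and the Nr4a site NBRE, AAAGGTCA; every whole CRE also counts as half-sites. Dusp1 (chr17:26508423-26508722, minus strand) held the only whole CRE, 143 to 136 bases before its start and shown in capitals, which 1.79% of 32851 promoters hold. In Dusp2 (chr2:127335909-127336208, plus strand) the capitals mark an EGR site, found in 2.91% of promoters. Dusp5 (chr19:53528895-53529194, plus strand) held 2 CArG boxes in a row (capitals), where 1.63% of promoters hold at least 1 and 6 of 32851 hold at least 2. The windows of Nr4a1 (chr15:101266596-101266895, plus strand), Nr4a2 (chr2:57123954-57124253, minus strand) and Nr4a3 (chr4:48045055-48045354, plus strand) each held 4 CRE half-sites (capitals, on either strand), a number reached by 76 promoters (0.231%), while 20.8% hold at least 1. For Dusp1, Dusp10 and Nr4a1 the RefSeq start lies 53656, 21079 and 12577 bases inside the longer gene span of the GENCODE annotation, so other starts of these genes were not searched. Each sequence is read 5′ to 3′ on the strand of its gene.
Dusp1: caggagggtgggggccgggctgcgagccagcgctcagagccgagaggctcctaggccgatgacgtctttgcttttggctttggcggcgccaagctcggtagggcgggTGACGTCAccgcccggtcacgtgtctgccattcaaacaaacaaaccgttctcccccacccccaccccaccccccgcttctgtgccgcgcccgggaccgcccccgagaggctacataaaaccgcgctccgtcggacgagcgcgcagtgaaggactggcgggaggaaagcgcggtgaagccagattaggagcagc
Dusp2: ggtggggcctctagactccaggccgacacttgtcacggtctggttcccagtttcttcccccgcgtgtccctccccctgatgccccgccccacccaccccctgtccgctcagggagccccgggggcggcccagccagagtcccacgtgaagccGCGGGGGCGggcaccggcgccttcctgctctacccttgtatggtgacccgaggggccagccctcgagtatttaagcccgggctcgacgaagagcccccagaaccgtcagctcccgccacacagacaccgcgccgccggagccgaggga
Dusp5: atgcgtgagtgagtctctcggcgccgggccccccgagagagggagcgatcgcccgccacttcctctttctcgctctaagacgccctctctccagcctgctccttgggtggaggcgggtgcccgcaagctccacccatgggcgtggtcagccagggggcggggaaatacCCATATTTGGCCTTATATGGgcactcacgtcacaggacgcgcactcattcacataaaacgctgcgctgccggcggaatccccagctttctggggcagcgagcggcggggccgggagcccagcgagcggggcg
Nr4a1: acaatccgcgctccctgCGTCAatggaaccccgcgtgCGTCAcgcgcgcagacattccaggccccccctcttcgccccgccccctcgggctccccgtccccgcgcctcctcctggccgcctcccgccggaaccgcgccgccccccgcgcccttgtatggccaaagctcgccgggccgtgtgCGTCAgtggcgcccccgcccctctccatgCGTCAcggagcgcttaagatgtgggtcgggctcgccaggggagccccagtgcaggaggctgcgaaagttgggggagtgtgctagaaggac
Nr4a2: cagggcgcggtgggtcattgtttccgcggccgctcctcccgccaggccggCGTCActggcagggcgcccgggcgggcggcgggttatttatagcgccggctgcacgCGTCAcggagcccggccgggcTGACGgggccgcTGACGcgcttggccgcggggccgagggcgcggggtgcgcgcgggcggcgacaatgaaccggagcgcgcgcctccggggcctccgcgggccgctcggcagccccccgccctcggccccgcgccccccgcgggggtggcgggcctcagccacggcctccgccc
Nr4a3: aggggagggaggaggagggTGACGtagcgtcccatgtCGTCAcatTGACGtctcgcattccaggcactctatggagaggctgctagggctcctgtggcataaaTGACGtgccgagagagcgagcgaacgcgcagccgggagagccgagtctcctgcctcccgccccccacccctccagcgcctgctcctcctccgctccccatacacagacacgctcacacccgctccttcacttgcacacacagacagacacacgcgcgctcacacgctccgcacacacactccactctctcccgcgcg
Of the motifs searched, Dusp1 held 1 further CRE half-site, Dusp2 and Dusp5 held 1 each, Nr4a1 held 1 EGR site, Dusp6 and Dusp10 held none, and no AP-1 or NBRE match lay in any of the 8 windows. Matches describe the letters only and say nothing about whether a factor binds there.

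Deposited barcodes numbered 44656, and 41744 cells were analysed after filters. Libraries held 55448411 to 73867890 unique molecular identifiers (UMIs) in knockout and 55017937 to 65000706 in control mice. Clusters were named from marker genes, without the 9 members among the genes used for clustering, and 10 classes had at least 20 cells in every library: T-like (15839 cells), B-like (8295), mesothelial-like (2944), endothelial-like (2643), NK/ILC1-like (2623), cholangiocyte-like (2277), type 1 conventional dendritic (cDC1-like, 974), neutrophil-like (927), plasma-like (801) and stellate/fibroblast-like (535). No cluster took the name of macrophages or hepatocytes. The library of control 2 was shallower in several classes, with median UMIs per endothelial-like cell of 8594 to 10218 in knockout and 5845 to 10017 in control mice. Endothelial-like cells carried Pecam1 (1235 CPM), Cdh5 (639 CPM) and Vwf (651 CPM), and the sinusoidal markers Stab2 (162 CPM) and Clec4g (118 CPM) were low, from 58.6 to 319 CPM and 38.6 to 231 CPM among mice, so the class is not called sinusoidal. Sting1, the targeted gene, stood at 21.5, 14.6 and 22.04 CPM in endothelial-like cells of the 3 knockout mice, against 28.0, 26.4 and 27.8 CPM in the 3 controls, a log2 fold change of -0.48 (SE 0.18). It was also lower in every knockout mouse in B-like (log2 fold change -0.78, SE 0.23) and NK/ILC1-like cells (log2 fold change -0.77, SE 0.22) and higher in every knockout mouse in cDC1-like cells (log2 fold change 0.63, SE 0.24), so the difference was not limited to the endothelial-like class. The labels do not name the floxed exons, and 3′ counting may read other parts of the transcript, so these counts are no check of the deletion.

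Levels of the members differed widely between cell classes. They are given as counts per 1000000 (CPM) of the UMIs summed over the cells of a class in each mouse, scaled by TMM size factors, as mean ± SD over the 6 mice of both genotypes (n = 6), and are compared between classes within a gene only, since 3′ counting does not put different genes on a common scale. In summed counts, fewer expressing cells and less RNA in each cell cannot be told apart. The labels call the 6 samples biological replicates. Across the 10 classes the highest mean exceeded the lowest by between 7.3-fold (Dusp5) and 63.1-fold (Dusp2).

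**Figure D1:**
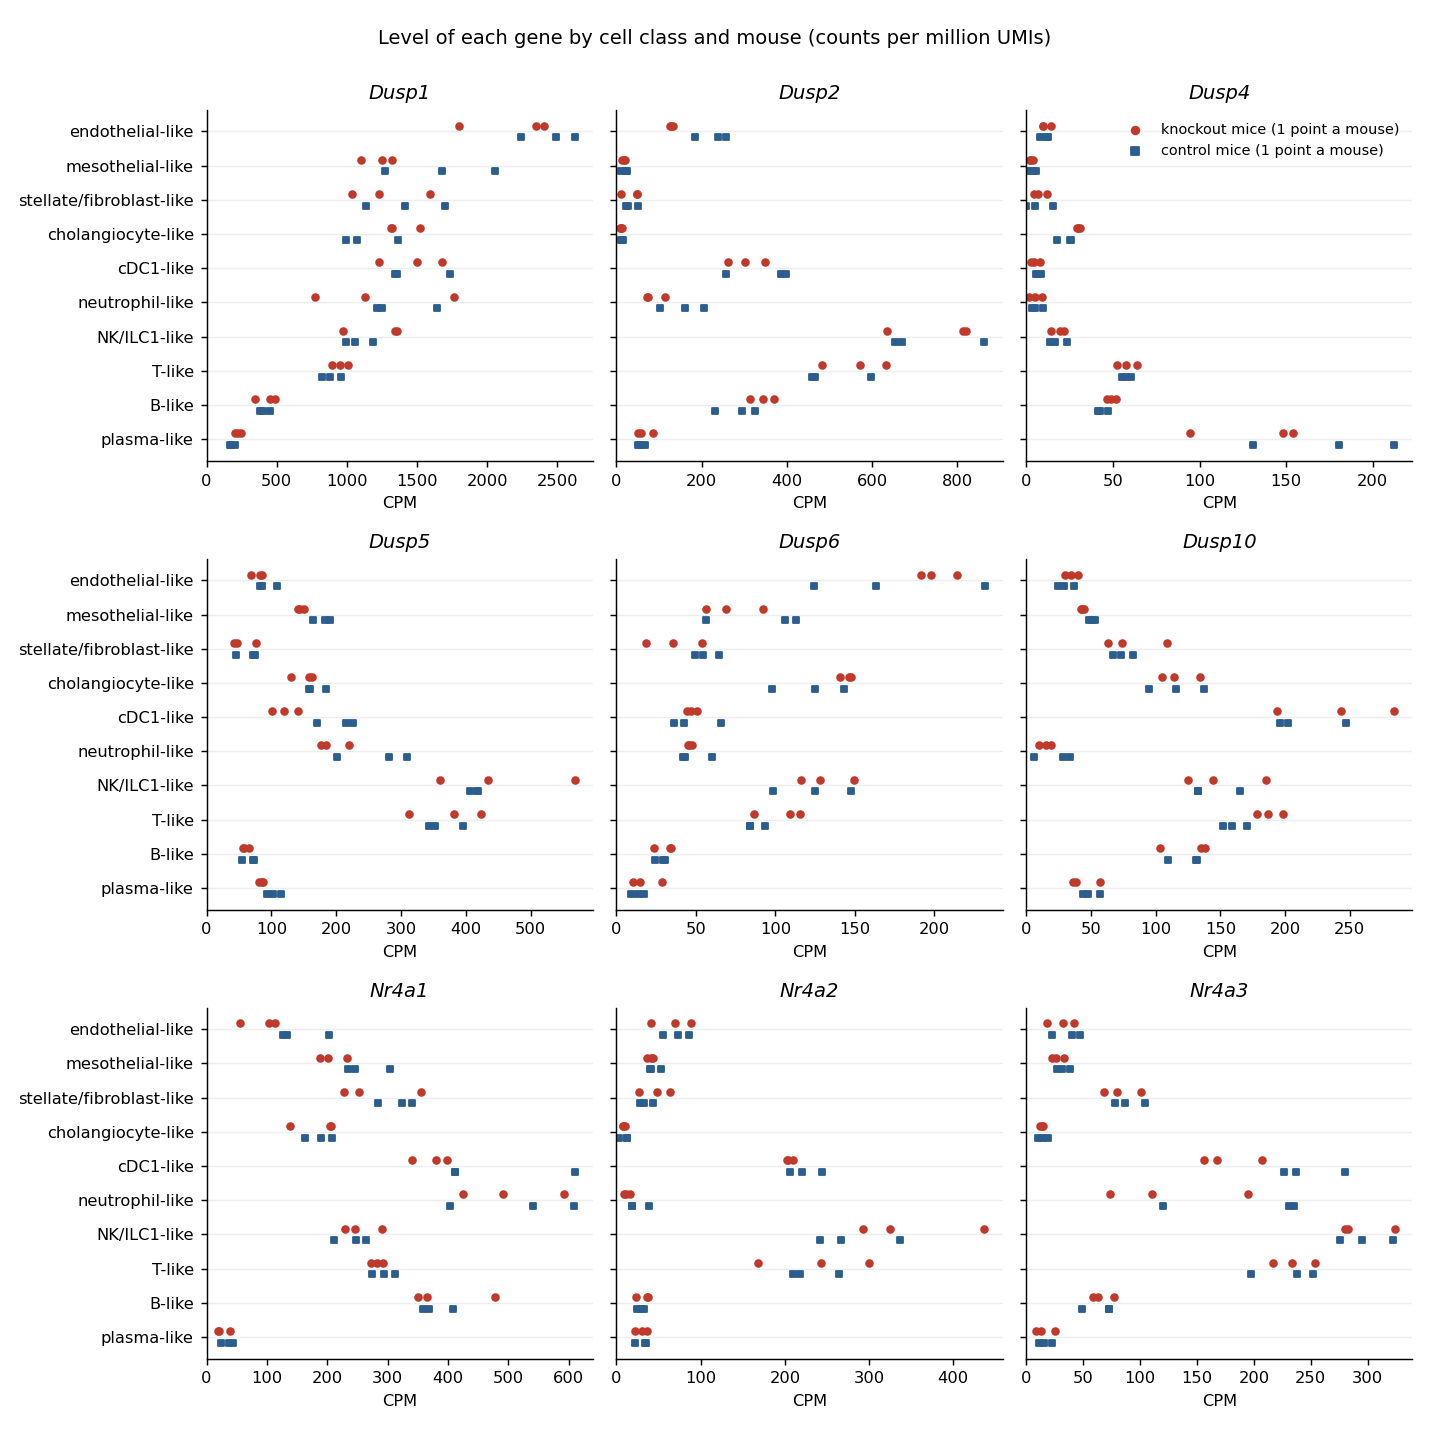
Level of each member (CPM, horizontal axis, starting at 0) in the 10 cell classes, with 1 point a mouse, circles for the 3 knockout and squares for the 3 control mice. Dusp1 was highest in endothelial-like cells, Dusp2 in NK/ILC1-like cells and Dusp4 in plasma-like cells, and the lowest class mean of a panel lay 7.3 to 63.1 times under its highest.

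Dusp1 (gene at chr17:26505590-26562128, GRCm38), an immediate early phosphatase of p38, JNK and ERK, was highest in endothelial-like cells, at 2319 ± 286 CPM, and the 6 mice there (1801 to 2629 CPM) lay above every mouse in the next class. Below it came 1474 ± 201 CPM in cDC1-like cells, 1447 ± 354 CPM in mesothelial-like cells, 1352 ± 261 CPM in stellate/fibroblast-like cells, 1296 ± 359 CPM in neutrophil-like cells, 1264 ± 196 CPM in cholangiocyte-like cells and 1152 ± 173 CPM in NK/ILC1-like cells. T-like cells (919 ± 67.5 CPM) stood apart from B-like cells (419 ± 54.4 CPM), and these from plasma-like cells (202 ± 30.2 CPM). Other neighbours in this order, from cDC1-like to T-like cells, overlapped in their mice.

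Dusp2 (chr2:127336159-127338376), a nuclear phosphatase known from activated leukocytes, was highest in NK/ILC1-like and T-like cells. It stood at 743 ± 100.1 CPM in NK/ILC1-like cells and 535 ± 75.2 CPM in T-like cells, and the mice of these classes did not overlap with each other or with the next, at 326 ± 61.6 CPM in cDC1-like cells and 313 ± 48.1 CPM in B-like cells. Endothelial-like cells held 178 ± 59.0 CPM, within the range of neighbours. The rest ran through 122 ± 52.5 CPM in neutrophil-like cells, 61.6 ± 13.6 CPM in plasma-like cells, 34.6 ± 16.03 CPM in stellate/fibroblast-like cells and 17.99 ± 5.68 CPM in mesothelial-like cells to 11.8 ± 2.24 CPM in cholangiocyte-like cells.

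Dusp4 (chr8:34807297-34819894), a nuclear phosphatase induced by ERK signalling, had another order, with 153.4 ± 40.5 CPM in plasma-like cells, 57.9 ± 4.07 CPM in T-like cells and 46.4 ± 4.02 CPM in B-like cells, each set of mice clear of the next. Cholangiocyte-like cells followed at 26.4 ± 4.86 CPM and overlapped with NK/ILC1-like cells (18.2 ± 4.03 CPM). The lowest levels were 10.9 ± 2.36 CPM in endothelial-like cells, 7.12 ± 5.63 CPM in stellate/fibroblast-like cells, 5.90 ± 2.07 CPM in cDC1-like cells, 5.41 ± 3.19 CPM in neutrophil-like cells and 3.17 ± 1.61 CPM in mesothelial-like cells, and no neighbours among them were separated.

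Dusp5 (chr19:53529109-53542431), the nuclear phosphatase specific to ERK, stood highest at 434 ± 70.6 CPM in NK/ILC1-like cells and 368 ± 40.1 CPM in T-like cells, which overlapped with each other but not with the classes below. Next were 229 ± 54.6 CPM in neutrophil-like cells, 162 ± 50.7 CPM in cDC1-like cells, 162 ± 21.1 CPM in mesothelial-like cells and 159 ± 17.2 CPM in cholangiocyte-like cells. A further gap separated cholangiocyte-like cells from 93.9 ± 12.5 CPM in plasma-like cells, 85.8 ± 13.3 CPM in endothelial-like cells, 63.3 ± 7.99 CPM in B-like cells and 59.4 ± 16.3 CPM in stellate/fibroblast-like cells.

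Dusp6 (chr10:99263231-99267489), the cytoplasmic ERK phosphatase, was highest outside the immune classes, with 187 ± 38.3 CPM in endothelial-like cells and 134 ± 19.2 CPM in cholangiocyte-like cells. It stood at 127 ± 19.4 CPM in NK/ILC1-like cells, 95.4 ± 13.7 CPM in T-like cells, 82.2 ± 24.9 CPM in mesothelial-like cells and 47.7 ± 9.98 CPM in cDC1-like cells, and 47.2 ± 6.55 CPM in neutrophil-like cells, 46.2 ± 16.4 CPM in stellate/fibroblast-like cells, 29.3 ± 4.55 CPM in B-like cells and 15.6 ± 7.05 CPM in plasma-like cells closed the order. No pair of neighbours in it was separated over the 6 mice, although the ends differed 12.0-fold.

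Dusp10 (chr1:184013302-184075636), the phosphatase of p38 and JNK, peaked at 228 ± 36.4 CPM in cDC1-like cells. Then came 174 ± 17.3 CPM in T-like cells, 148 ± 23.2 CPM in NK/ILC1-like cells, 125 ± 14.6 CPM in B-like cells, 117 ± 16.6 CPM in cholangiocyte-like cells and 78.0 ± 16.3 CPM in stellate/fibroblast-like cells. The single separation between neighbours lay there, above 47.0 ± 4.29 CPM in mesothelial-like cells, 46.6 ± 8.94 CPM in plasma-like cells, 32.4 ± 5.60 CPM in endothelial-like cells and 18.7 ± 10.6 CPM in neutrophil-like cells.

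Nr4a1 (chr15:101254269-101274795), the receptor induced by antigen receptor signals in T and B cells, was highest in neutrophil-like, cDC1-like and B-like cells. It reached 510.2 ± 85.3 CPM in neutrophil-like cells, 425 ± 94.4 CPM in cDC1-like cells and 388 ± 48.7 CPM in B-like cells, followed by 297 ± 50.7 CPM in stellate/fibroblast-like cells, 288 ± 15.1 CPM in T-like cells, 248 ± 27.7 CPM in NK/ILC1-like cells, 235 ± 40.7 CPM in mesothelial-like cells and 185 ± 28.5 CPM in cholangiocyte-like cells. Endothelial-like cells (122 ± 48.0 CPM) lay clear of plasma-like cells (30.7 ± 10.3 CPM), and no other neighbours were separated. Outside the 10 classes, smooth muscle/mural-like cells held 1377 CPM when pooled over all mice (706 cells, given without SD because 1 library had 12 of them).

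Nr4a2 (chr2:57106830-57124003) and Nr4a3 (chr4:48045153-48086447) shared their 3 highest classes. For Nr4a2 these were 317 ± 68.8 CPM in NK/ILC1-like cells, 234 ± 46.0 CPM in T-like cells and 214 ± 15.7 CPM in cDC1-like cells, above a gap to 69.0 ± 17.98 CPM in endothelial-like cells, 42.2 ± 5.45 CPM in mesothelial-like cells and 40.3 ± 14.3 CPM in stellate/fibroblast-like cells. Its remaining levels were 30.7 ± 5.73 CPM in B-like cells, 29.8 ± 6.54 CPM in plasma-like cells, 18.6 ± 10.47 CPM in neutrophil-like cells and 8.95 ± 3.54 CPM in cholangiocyte-like cells. Nr4a3 stood at 297 ± 21.4 CPM in NK/ILC1-like cells, apart from 232 ± 21.5 CPM in T-like cells, 212 ± 45.9 CPM in cDC1-like cells and 161 ± 68.6 CPM in neutrophil-like cells. A second gap lay between 65.5 ± 10.7 CPM in B-like cells and 33.5 ± 11.4 CPM in endothelial-like cells, 29.6 ± 5.64 CPM in mesothelial-like cells, 15.9 ± 6.41 CPM in plasma-like cells and 13.8 ± 2.95 CPM in cholangiocyte-like cells, with 86.3 ± 14.1 CPM in stellate/fibroblast-like cells above it. Mature dendritic-like cells (298 cells), too few in some libraries for the order, held 982 CPM of Nr4a3 and 688 CPM of Dusp5 when pooled, while their pooled Nr4a1 was 85.7 CPM.

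The make-up of the Nr4a counts therefore differed between classes. Nr4a1 gave 89.3% of all Nr4a UMIs in cholangiocyte-like cells, 80.1% in B-like cells and 80.3% in smooth muscle/mural-like cells. Its share was 37.5% in T-like cells, 28.9% in NK/ILC1-like cells and 7.48% in mature dendritic-like cells, where Nr4a3 gave 85.7%. These shares are read across classes only and carry no error, being sums over all 6 mice.

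Within T-like cells the members marked different subsets. Subset levels are CPM of all UMIs without TMM scaling (mean ± SD, n = 6 mice). Dusp4 was at 199 ± 23.3 CPM in regulatory T-like cells, against 16.6 to 75.1 CPM in the 7 other subsets. Dusp2 ran the other way, with 173 ± 42.3 CPM in regulatory T-like cells, 798 ± 116 CPM in CD8 T-like cells and 524 ± 114 CPM in conventional CD4 T-like cells. Dusp1 was highest in IL-17-type gamma-delta T-like cells (1949.9 ± 232 CPM), and it was 754 ± 114.8 CPM in CD8 T-like cells. Dusp10 peaked in a cluster led by Lef1 and Dapl1, at 379.7 ± 70.8 CPM, against 140.0 ± 16.2 CPM in CD8 T-like cells. Dusp6 peaked in cluster 8, whose leading genes include Zbtb16 and Il4, at 173 ± 25.5 CPM, and was 43.6 ± 6.54 CPM in regulatory T-like cells. Of the receptors, Nr4a2 was at 406 ± 66.8 CPM in CD8 T-like cells, 282 ± 70.6 CPM in regulatory T-like cells and 95.6 ± 13.9 CPM in IL-17-type gamma-delta T-like cells. Nr4a1 had its highest level in that last subset, at 413 ± 25.5 CPM, and was 267 ± 33.5 CPM in CD8 T-like cells. Dusp5 and Nr4a3 varied less, with subset means of 238 to 462 CPM and 119 to 276 CPM. The subsets were drawn by clustering on other genes of the same cells, so these levels are a description.

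**Figure D2:**
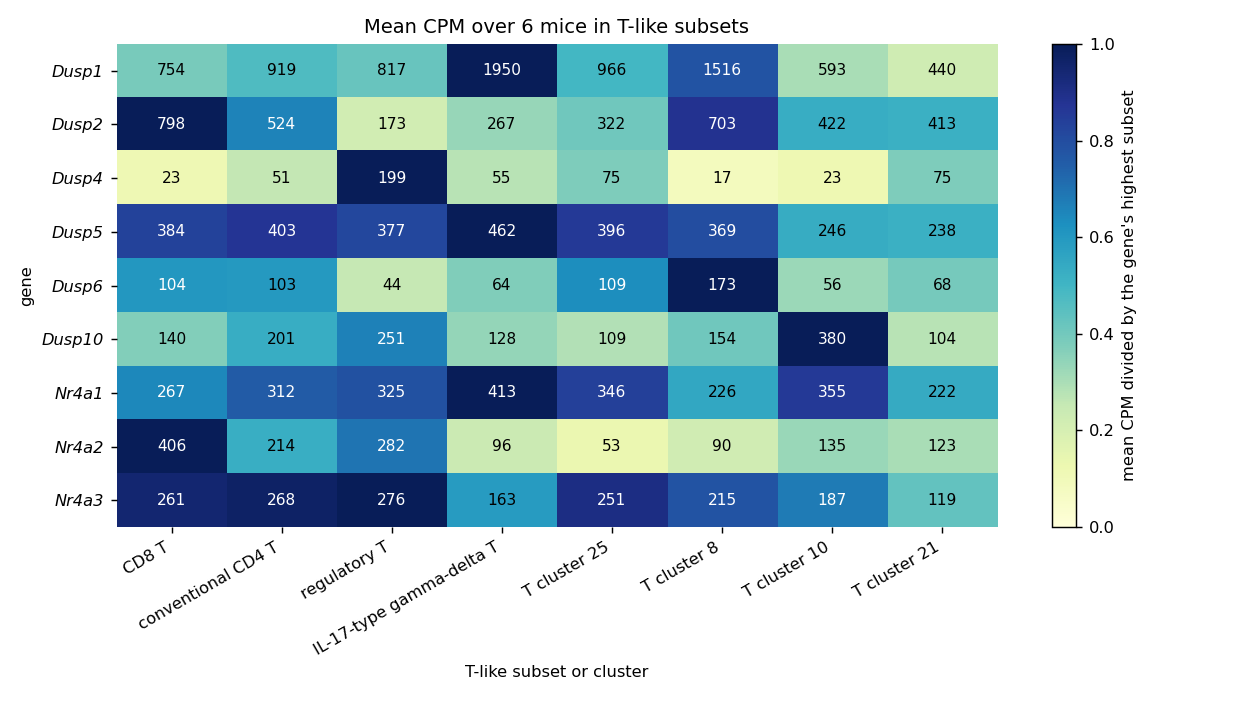
Heat map of the mean level of each member over the 6 mice (CPM of all UMIs, written in each cell) in the 8 T-like subsets and clusters, coloured by the level divided by that of the gene's highest subset. Dusp4 stands out in regulatory T-like cells at 199 ± 23.3 CPM, and Dusp2 is higher in CD8 T-like cells, at 798 ± 116 CPM, than in regulatory T-like cells.

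Shares of cells with at least 1 UMI are given as counted and after each cell was thinned to 2000 UMIs, with shallower cells left out, for classes at the upper and lower ends of the order. A Dusp1 UMI was found in 96.1% of endothelial-like cells (89.6% after thinning) and 64.3% of plasma-like cells (25.03% after thinning), its lowest class. Dusp2 was found in 83.2% of NK/ILC1-like cells (62.5% after thinning) and 41.9% of endothelial-like cells (19.4% after thinning). It was found in 11.02% of cholangiocyte-like cells (1.99% after thinning), the class of lowest level. The part of free RNA in these shares was not tested. Median depth was 6278 UMIs in NK/ILC1-like, 8880.0 in endothelial-like and 14385 in cholangiocyte-like cells. For Dusp4 the shares were 58.2% of plasma-like cells (21.5% after thinning) and 5.23% of mesothelial-like cells (0.492% after thinning), at median depths of 15915 and 18068 UMIs. Nr4a3 was found in 84.9% of mature DC-like cells (65.2% after thinning) and 20.5% of cholangiocyte-like cells (3.51% after thinning), at median depths of 12084 and 14385 UMIs. By genotype, a Dusp2 UMI was found in 36.8% (14.5% after thinning) of endothelial-like cells of knockout mice, against 46.3% (23.8% after thinning) in controls. Median depths were 9658 and 8168 UMIs, and thinning left out 61 cells of knockout and 132 of control mice. These shares pool the cells of all mice in a group, without a value for each mouse. The controls gave 207, 659 and 554 cells, and mice differed in their share of the cluster richest in Dusp2, given below.

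Some pairs of members varied together, and others did not. Over the 10 class means on the log2(CPM + 1) scale, Pearson r was 0.79 for Dusp1 with Dusp6, 0.77 for Dusp2 with Nr4a2, 0.76 for Dusp2 with Nr4a3 and 0.73 for Nr4a2 with Nr4a3, and it was -0.80 for Dusp1 with Dusp4. Pairs such as Dusp1 with Dusp2 (-0.06) and Dusp4 with Dusp5 (-0.01) showed next to no relation. Once each class mean was taken off, leaving 60 library values, the highest r were 0.62 for Nr4a1 with Nr4a3 and 0.55 for Nr4a2 with Nr4a3. The lowest was -0.17, for Dusp4 with Nr4a3. All class points share the 6 libraries, so these values describe the data and carry no p. The most alike genes below were picked by highest r among 9665 genes, over 10 class means or 60 library values. Such a search favours high values of r, so these genes are not read as partners. Genes most like a member over class means were Arrb1 (0.96) for Dusp1, Abcg1 (0.98) for Dusp2, Mrpl1 (0.96) for Dusp4, Mapkapk3 (0.93) for Dusp5, Anp32a (0.93) for Dusp6, Cdc5l (0.96) for Dusp10, Inpp4a (0.88) for Nr4a1, Klrk1 (0.93) for Nr4a2 and Ranbp9 (0.95) for Nr4a3, with r in parentheses. Over the 60 library values, Zfp36 (0.75), Junb (0.70) and Fos (0.70) were most like Dusp1, all 3 of them immediate early or early response genes, and Rgs1 (0.72), Rasgrp1 (0.71) and Runx3 (0.70) most like Dusp2. The most alike gene of the others was Gm29282 (0.74) for Dusp4, Irf1 (0.65) for Dusp5, Notch1 (0.69) for Dusp6, Suclg2 (0.77) for Dusp10, Bhlhe40 (0.68) for Nr4a1, Il2rb (0.63) for Nr4a2 and Rbpj (0.66) for Nr4a3.

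Knockout and control mice were compared class by class with edgeR over all genes tested, and 87 of the 90 pairs of a member and a class passed its filter on low counts; Dusp4 and Nr4a2 in neutrophil-like cells and Dusp4 in stellate/fibroblast-like cells did not. At an adjusted p under 0.05 edgeR called 0 members in every class. It called 1 of 13000 genes in T-like cells (0.00769%), 1 of 9242 in cDC1-like cells (0.0108%), 6 of 4741 in neutrophil-like cells (0.127%) and 0 (0%) in the other 7 classes. Members at an unadjusted p under 0.05 numbered 4 in mesothelial-like cells, where 16.9% of all genes tested reached it, and 2 each in endothelial-like (6.67% of genes) and cDC1-like cells (6.87%). They numbered 1 each in T-like (6.05%), B-like (5.99%), cholangiocyte-like (9.55%) and neutrophil-like cells (7.45%) and 0 in NK/ILC1-like (6.68%), plasma-like (5.61%) and stellate/fibroblast-like cells (3.09%). DESeq2 called 1 member, Dusp2 in endothelial-like cells, among 13 of the 12800 genes it gave an adjusted p (0.102%). The members were chosen with these contrasts known, so nothing is read from these counts. Over all genes tested in a class the median log2 fold change lay between -0.01 and 0.01, which stands beside each median over the members given here, and 48.3% to 51.5% of them were lower in knockout mice.

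**Figure D3:**
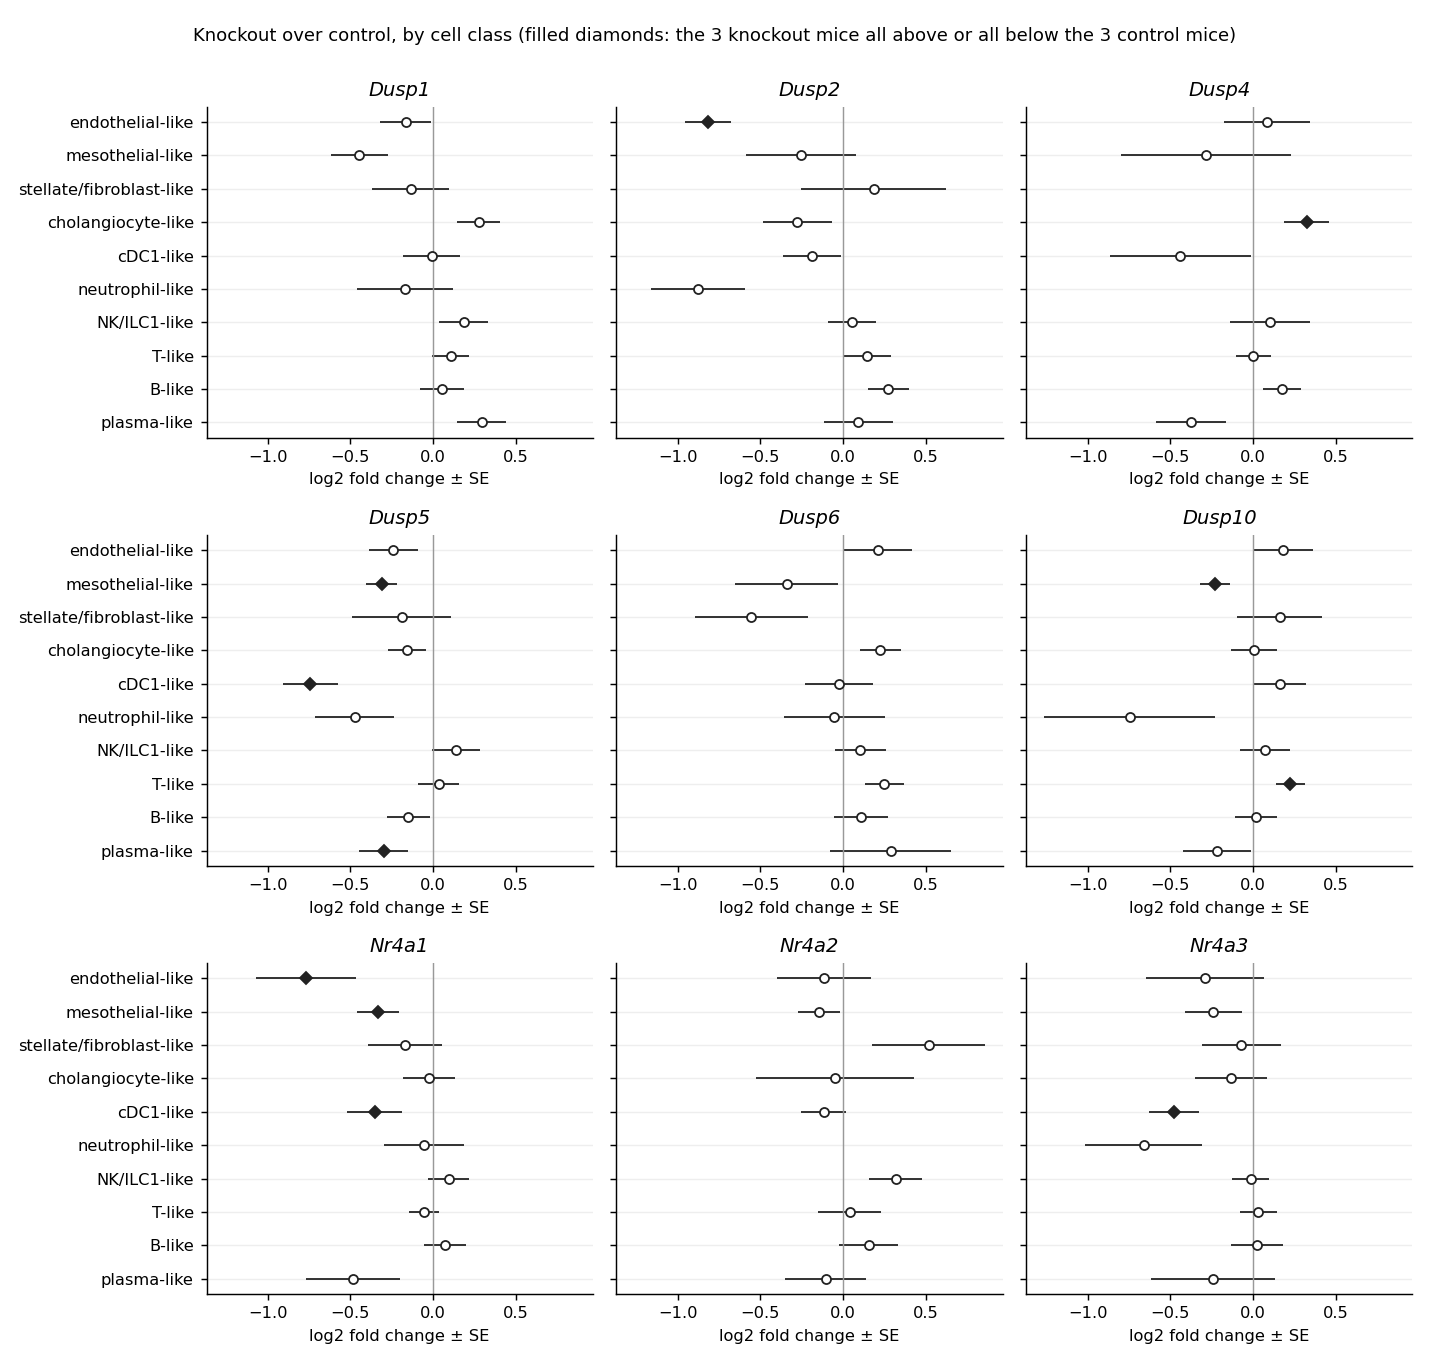
Log2 fold change of each member, knockout over control, in the 10 classes, with bars for 1 SE on each side and filled diamonds where the 3 knockout mice lay all above or all below the 3 controls; edgeR called none of them. Dusp2 in endothelial-like cells lies at -0.82 and Dusp5 in cDC1-like cells at -0.74, while most members in T-like, B-like and NK/ILC1-like cells lie slightly above 0.

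In endothelial-like cells, the target of the deletion, Dusp2 and Nr4a1 were lower in every knockout mouse than in every control mouse. Dusp2 was at 127, 125 and 134 CPM in the 3 knockout mice, against 239, 257 and 185 CPM in the 3 controls. The knockout mice were close to one another and under the lowest control, with a log2 fold change of -0.82 (SE 0.14). Nr4a1 was at 55.04, 114 and 103 CPM in knockout mice, against 134, 202 and 126 CPM in controls (log2 fold change -0.77, SE 0.30), and here knockout 1 was the lowest and control 2 the highest. The share of all genes in this class with every knockout mouse under every control was 6.23%, and 6.73% had every knockout mouse over.

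The other members overlapped between genotypes in endothelial-like cells. Dusp1 was at 1801, 2346 and 2409 CPM in knockout mice, against 2240.2, 2629 and 2491 CPM in controls (log2 fold change -0.17, SE 0.15). Dusp6 was at 198, 214 and 191 CPM in knockout mice, against 125, 232 and 163.4 CPM in controls (log2 fold change 0.21, SE 0.21). For Dusp1 knockout 1 was the lowest mouse, and the other 2 knockout mice lay above control 1 only; for Dusp6 all 3 knockout mice lay between the lowest and the highest control. Log2 fold changes were -0.24 (SE 0.15) for Dusp5, -0.29 (SE 0.36) for Nr4a3, -0.11 (SE 0.28) for Nr4a2, 0.09 (SE 0.26) for Dusp4 and 0.18 (SE 0.18) for Dusp10. In all, 6 of 9 members were lower, with a median of -0.17. Without control 3, edgeR called Dusp2 (log2 fold change -0.95, SE 0.12), 1 of 79 genes then called in this class (0.631% of 12511). Control 3 had the lowest Dusp2 of the controls and, as given below, the smallest share of the cluster richest in Dusp2. This member was chosen with the contrast known, so nothing is read from the call.

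The endothelial-like class was made of 3 clusters, and Dusp2 was unevenly spread over them. Levels by cluster, or with a cluster left out, are CPM of all UMIs without TMM scaling, unlike those of the whole class. Cluster 26, led by Mmrn1 and Ccl21a, genes known from lymphatic endothelium (335 cells), held 486 ± 130.2 CPM of Dusp2, while cluster 9, led by Selp, Rspo3 and Vwf (1188 cells), held 120.2 ± 38.3 CPM and cluster 11, led by Ldb2 and Mecom (1120 cells), held 102 ± 26.2 CPM. Cluster 26 made up 6.35%, 12.2% and 7.56% of the endothelial-like cells in knockout mice, against 23.7%, 23.4% and 6.14% in control mice. Its share was thus highest in control 1 and control 2, and control 3 lay below the lowest knockout mouse. Without cluster 26, a choice made after these values were seen, Dusp2 was at 90.4, 106 and 106 CPM in knockout mice, against 75.3, 138 and 146 CPM in controls, the groups overlapped and the log2 fold change was -0.32 (SE 0.23). Nr4a1 was then at 54.2, 125 and 105 CPM in knockout mice, against 90.4, 152.98 and 123 CPM in controls (log2 fold change -0.43, SE 0.32), and also overlapped.

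Inside cluster 26 itself Dusp2 was at 490.1, 261 and 419 CPM in knockout mice, against 591, 550.4 and 607 CPM in controls, without overlap (log2 fold change -0.64, SE 0.22). Nr4a1 was at 74.7, 70.5 and 77.1 CPM there in knockout mice, against 222, 321 and 113 CPM in controls. The groups again did not overlap (log2 fold change -1.66, SE 0.31). These levels rest on 29, 29 and 40 cells in knockout mice, against 49, 154 and 34 cells in controls, so few transcripts lie behind each value. Of all genes tested in cluster 26, 5.89% were lower and 9.56% higher in every knockout mouse. In the larger clusters the log2 fold changes of Dusp2 were -0.34 (SE 0.29) in cluster 9 and -0.26 (SE 0.25) in cluster 11, and those of Nr4a1 were -0.70 (SE 0.27) and -0.37 (SE 0.31). Dusp2 is also a T cell transcript, and the 10 T cell markers summed in endothelial-like cells to 54.97 to 70.3 CPM in knockout mice, against 83.9 to 109 CPM in control mice, without overlap. The 8 plasmacytoid dendritic cell markers summed to 1207 to 1370.0 CPM in knockout mice, against 1125 to 1159 CPM in control mice. The 12 endothelial markers summed to 7225 to 8419.8 CPM in knockout mice, against 5982 to 6642 CPM in control mice, and both sums were higher in every knockout mouse. The part of T cell RNA in the Dusp2 values was not tested.

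**Figure D4:**
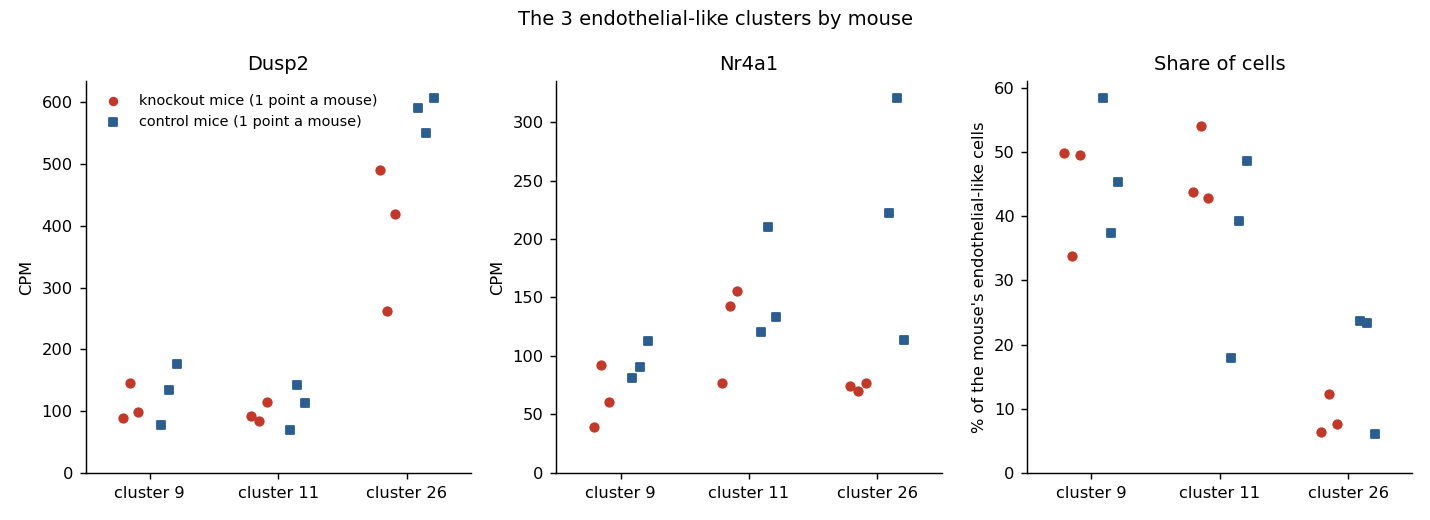
Dusp2 and Nr4a1 (CPM of all UMIs) in the 3 endothelial-like clusters and the share of each cluster among the endothelial-like cells of a mouse (%), with circles for knockout and squares for control mice. Cluster 26 has the highest Dusp2, at 486 ± 130.2 CPM, and its share was 6.35%, 12.2% and 7.56% in knockout mice, against 23.7%, 23.4% and 6.14% in controls.

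In cDC1-like cells, the dendritic cells of cross-presentation, 3 members lay lower in every knockout mouse (Dusp5, Nr4a1 and Nr4a3), where 6.12% of all genes did so and 5.79% lay higher in every knockout mouse. Dusp5 was at 101, 120.1 and 141 CPM in knockout mice, against 226, 215 and 170.1 CPM in controls. The highest knockout mouse was under the lowest control, with a log2 fold change of -0.74 (SE 0.16). Nr4a3 was at 168, 156 and 207 CPM in knockout mice, against 280.0, 226 and 237 CPM in controls (log2 fold change -0.48, SE 0.15). For Nr4a1 the knockout mice were at 340.0, 398 and 380.3 CPM, against 610.1, 412 and 412 CPM in controls (log2 fold change -0.35, SE 0.17), and control 1 stood above the other 5 mice, which lay close together. Of the 9 members 8 were lower, with a median of -0.19; the others had log2 fold changes of -0.44 (Dusp4) to 0.16 (Dusp10). Mature dendritic cells carry more Dusp5 and Nr4a3, and their 8 markers summed in cDC1-like cells to 78.7 to 271 CPM in knockout and 167 to 276 CPM in control mice, in overlapping ranges. The 10 T cell markers, from cells that also carry more Dusp5, summed to 52.6 to 61.2 CPM in knockout mice, against 64.9 to 87.9 CPM in control mice, without overlap. B cell markers (8 genes) summed to 90.9 to 226 CPM in knockout mice, against 23.2 to 80.0 CPM in control mice, higher in every knockout mouse, as were the 8 markers of the class itself, at 4870.4 to 5147 CPM in knockout mice, against 4038 to 4439 CPM in control mice. The 8 smooth muscle/mural markers were lower, at 2.02 to 4.59 CPM in knockout mice, against 4.88 to 15.4 CPM in control mice. Median UMIs per cDC1-like cell were 14457 to 16202 in knockout and 5653 to 16855 in control mice, the lowest being those of control 2. The part of these cells and of depth in the 3 differences was not tested.

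In mesothelial-like cells, the lining of the liver surface, all 9 members were lower in knockout mice on average, with a median of -0.29, and Dusp5, Dusp10 and Nr4a1 did not overlap (10.1% of all genes were lower and 12.7% higher in every knockout mouse). Dusp5 was at 140.5, 144 and 150.0 CPM in knockout mice, against 164.2, 191 and 183 CPM in controls (log2 fold change -0.31, SE 0.09). Dusp10 was at 42.2, 44.6 and 43.0 CPM in knockout mice, against 50.5, 52.7 and 48.6 CPM in controls (log2 fold change -0.23, SE 0.09). In both genes the mice of a group lay within a narrow band. Nr4a1 was at 189, 234 and 201 CPM in knockout mice, against 235, 305 and 246 CPM in controls (log2 fold change -0.33, SE 0.13), knockout 2 lying just under control 1. Dusp1 was at 1320.4, 1105 and 1249 CPM in knockout mice, against 1274, 2054 and 1680.3 CPM in controls, and overlapped (log2 fold change -0.45, SE 0.17). The others had log2 fold changes of -0.34 (Dusp6) to -0.14 (Nr4a2). Median UMIs per mesothelial-like cell were 19069 to 22222 in knockout and 12156 to 17608 in control mice, and the CPM are scaled to depth. The 8 cDC1 markers summed to 58.9 to 65.8 CPM in knockout mice, against 71.9 to 83.1 CPM in control mice. The 14 monocyte/macrophage markers summed to 24.2 to 37.0 CPM in knockout mice, against 39.6 to 45.6 CPM in control mice, and neither sum overlapped. The 9 mesothelial markers were higher in every knockout mouse, at 5629 to 5969.5 CPM in knockout mice, against 5376 to 5625 CPM in control mice. The part of depth and of such RNA in the values of the members was not tested.

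Neutrophil-like cells had 7 of 7 tested members lower, with a median of -0.47; none of the tested members was free of overlap (5.46% of genes lower and 6.71% higher in every knockout mouse). The mean of Nr4a1 was highest here among the 10 classes, in a range that overlapped with cDC1-like cells. Nr4a1 was at 425, 593 and 492 CPM in knockout mice, against 540.2, 403 and 608 CPM in controls (log2 fold change -0.05, SE 0.24). Dusp5 was at 176, 220.2 and 185 CPM in knockout mice, against 282, 202 and 309.5 CPM in controls (log2 fold change -0.47, SE 0.24). Neither gene separated the genotypes. Dusp2 was at 75.1, 72.4 and 113 CPM in knockout mice, against 102, 206 and 161 CPM in controls (log2 fold change -0.88, SE 0.29). Nr4a3 was at 73.1, 195 and 110.3 CPM in knockout mice, against 120.1, 235 and 231 CPM in controls (log2 fold change -0.66, SE 0.35). In both of these a single knockout mouse lay above the lowest control, control 1. The others had log2 fold changes of -0.75 (Dusp10) to -0.05 (Dusp6). The untested Nr4a2 was at 11.1, 16.3 and 8.94 CPM in knockout mice, against 18.01, 38.4 and 18.9 CPM in controls, and Dusp4 at 4.81, 1.48 and 8.94 CPM in knockout mice, against 3.00, 4.80 and 9.45 CPM in controls. The 6 erythroid markers were at 0 in neutrophil-like cells of all 3 knockout mice and summed to 0 to 7170.3 CPM in those of control mice. B cell markers (8 genes) summed to 89.3 to 229 CPM in knockout mice, against 266 to 413 CPM in control mice, lower in every knockout mouse. The part of such admixed RNA in the values of the members was not tested.

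Plasma-like cells had 6 of 9 members lower (median -0.22), and Dusp5 was lower in every knockout mouse (log2 fold change -0.30, SE 0.15; 5.18% of genes lower and 5.56% higher in this way). The others had log2 fold changes of -0.48 (Nr4a1) to 0.29 (Dusp1). In plasma-like cells 2 sets of markers of other cells summed higher in every knockout mouse: monocyte/macrophage markers (14 genes) to 372 to 598 CPM in knockout mice, against 222 to 358 CPM in control mice, and mesothelial markers (9 genes) to 20.7 to 60.6 CPM in knockout mice, against 6.61 to 19.0 CPM in control mice. The sums that were lower in every knockout mouse were those of NK/ILC1 cells (10 genes), at 23.8 to 36.1 CPM in knockout mice, against 38.3 to 84.8 CPM in control mice, of cDC2 (8 genes), at 21.8 to 24.97 CPM in knockout mice, against 26.4 to 35.5 CPM in control mice, and of basophils/mast cells (7 genes), at 0.450 to 1.09 CPM in knockout mice, against 1.63 to 1.74 CPM in control mice. The part of such RNA in the values of the members was not tested. Stellate/fibroblast-like cells had 5 of 8 tested members lower (median -0.10), from -0.55 (Dusp6) to 0.52 (Nr4a2), and all overlapped (4.86% of genes lower and 4.26% higher in every knockout mouse). Endothelial markers (12 genes) summed there to 191 to 221 CPM in knockout mice, against 248 to 320.1 CPM in control mice, lower in every knockout mouse, and the part of such RNA was not tested.

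T-like, B-like and NK/ILC1-like cells leaned slightly the other way, unlike plasma-like cells, with 1 of 9 members lower in T-like, 1 of 9 in B-like and 1 of 9 in NK/ILC1-like cells and medians of 0.04, 0.07 and 0.10. Dusp10 in T-like cells was at 178, 198 and 187 CPM in knockout mice, against 170.2, 159 and 152 CPM in controls (log2 fold change 0.23, SE 0.09). Every knockout mouse was above every control, as for 5.78% of genes, while 5.44% had every knockout mouse under. B cell markers (8 genes) also summed higher in T-like cells of every knockout mouse, to 26.5 to 43.7 CPM in knockout mice, against 16.1 to 20.1 CPM in control mice. The same held for hepatocyte markers (8 genes), at 7.09 to 16.5 CPM in knockout mice, against 2.75 to 5.64 CPM in control mice, and for stellate/fibroblast markers (10 genes), at 8.54 to 11.2 CPM in knockout mice, against 5.46 to 6.98 CPM in control mice. The part of such RNA was not tested. In B-like cells monocyte/macrophage markers (14 genes) summed lower in every knockout mouse, at 16.8 to 19.6 CPM in knockout mice, against 21.7 to 23.4 CPM in control mice. Plasma cell markers (8 genes) were lower in the same way, at 60.8 to 73.7 CPM in knockout mice, against 80.4 to 89.3 CPM in control mice. Platelet markers (6 genes) were higher, at 1.11 to 1.37 CPM in knockout mice, against 0.639 to 0.924 CPM in control mice. In NK/ILC1-like cells endothelial markers (12 genes) were lower, at 182 to 209.7 CPM in knockout mice, against 239 to 257 CPM in control mice, and plasmacytoid dendritic cell markers (8 genes) higher, at 149.6 to 172 CPM in knockout mice, against 123 to 147 CPM in control mice. The part of such RNA in both classes was not tested. In B-like and NK/ILC1-like cells all members overlapped (6.07% and 6.47% of genes lower, 4.86% and 5.12% higher in every knockout mouse). Dusp2 was at 813, 635 and 819 CPM in NK/ILC1-like cells of knockout mice, against 670.3, 654 and 864 CPM in controls (log2 fold change 0.05, SE 0.15). In these 3 classes the other members had log2 fold changes of -0.06 (Nr4a1) to 0.25 (Dusp6) in T-like cells, all had log2 fold changes of -0.15 (Dusp5) to 0.27 (Dusp2) in B-like cells and the others had log2 fold changes of -0.01 (Nr4a3) to 0.32 (Nr4a2) in NK/ILC1-like cells. In cholangiocyte-like cells Dusp4 was at 31.2, 29.0 and 29.7 CPM in knockout mice, against 17.8, 24.95 and 25.96 CPM in controls (log2 fold change 0.32, SE 0.14), all higher, as for 8.33% of genes (7.64% lower), and 5 of 9 members were lower there; the others had log2 fold changes of -0.28 (Dusp2) to 0.28 (Dusp1). Among markers of other cells, cDC1 markers (8 genes) summed in cholangiocyte-like cells to 617 to 648 CPM in knockout mice, against 649 to 691 CPM in control mice, lower in every knockout mouse. Lower in the same way were smooth muscle/mural markers (8 genes), at 199 to 228 CPM in knockout mice, against 240.3 to 265 CPM in control mice, and platelet markers (6 genes), at 4.48 to 7.79 CPM in knockout mice, against 8.28 to 8.94 CPM in control mice. The part of such RNA was not tested.

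Since Dusp10 was highest in the T cell cluster led by Lef1 and Dapl1, its T-like values were also read by subset. That cluster made up 9.09%, 7.73% and 6.48% of T-like cells in knockout mice, against 7.09%, 6.94% and 9.95% in controls. Inside it Dusp10 was at 361, 490.0 and 399 CPM in knockout mice, against 355, 274 and 400.1 CPM in controls (log2 fold change 0.23, SE 0.17). Over the 8 subsets fitted, the log2 fold change of Dusp10 was above 0 in 8, from 0.06 (cluster 21, led by Mki67) to 0.52 (cluster 25, led by Il17a). The subsets are parts of the T-like cells of the same mice, so these signs are no independent repeats of the T-like value. In regulatory T-like cells it was at 312, 282 and 291 CPM in knockout mice, against 239, 195 and 189.8 CPM in controls (log2 fold change 0.47, SE 0.13), the single subset whose groups did not overlap for Dusp10. Of all genes tested in regulatory T-like cells, 5.71% were higher and 4.33% lower in every knockout mouse.

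Whether the difference between genotypes was itself larger in endothelial-like than in T-like cells was fitted as an interaction with the mouse as a term. edgeR called 2 of 13861 genes (0.0144%) and 0 of the 9 members; 2 members had an unadjusted p under 0.05, as had 5.44% of all genes. The difference of log2 fold changes, endothelial-like minus T-like, was -0.96 (SE 0.22) for Dusp2 and -0.74 (SE 0.29) for Nr4a1. Without control 3, edgeR called 1 member, Dusp2, among 46 of 14809 genes (0.311%). Without the filter on low counts it called Dusp2 among 77 of 23544 genes (0.327%). The members were chosen with the knockout against control values of both classes known, so nothing is read from these calls.

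Stress transcripts differed between the genotypes in several classes. In endothelial-like cells, heat shock genes (9 genes, induced by heat and by handling of tissue) made up 1.23% to 1.68% of UMIs in knockout mice, against 1.74% to 2.497% in controls. In T-like cells they made up 1.20% to 1.47% of UMIs in knockout mice, against 1.61% to 1.84% in controls, and in cDC1-like cells 1.30% to 1.44% of UMIs in knockout mice, against 1.63% to 1.91% in controls. The knockout mice lay under the controls without overlap in these 3 classes and in B-like, NK/ILC1-like, neutrophil-like and plasma-like cells, while the groups overlapped in cholangiocyte-like, mesothelial-like and stellate/fibroblast-like cells. AP-1 and other immediate early genes summed to 32318 to 45981 CPM in endothelial-like cells of knockout mice, against 47809 to 49177 CPM in controls. Cholangiocyte-like cells went the other way, with 52779 to 53947 CPM in knockout mice, against 48799 to 49762 CPM in controls. The groups overlapped in this sum in the other 8 classes. Over the 60 library values with class means taken off, r with the heat shock share was 0.51 for Dusp5, 0.45 for Dusp2, 0.40 for Nr4a3, 0.39 for Dusp1 and 0.27 for Nr4a1, and 0.16 to 0.21 for the other 4 members. With the AP-1 sum, r was 0.70 for Dusp1, 0.41 for Dusp5, 0.36 for Nr4a1, 0.29 for Dusp2 and 0.24 for Nr4a3, and 0.01 to 0.15 for the others. These values are a description over sums that share libraries and depth. The part of these transcripts in the differences of the members was not tested.

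**Figure D5:**
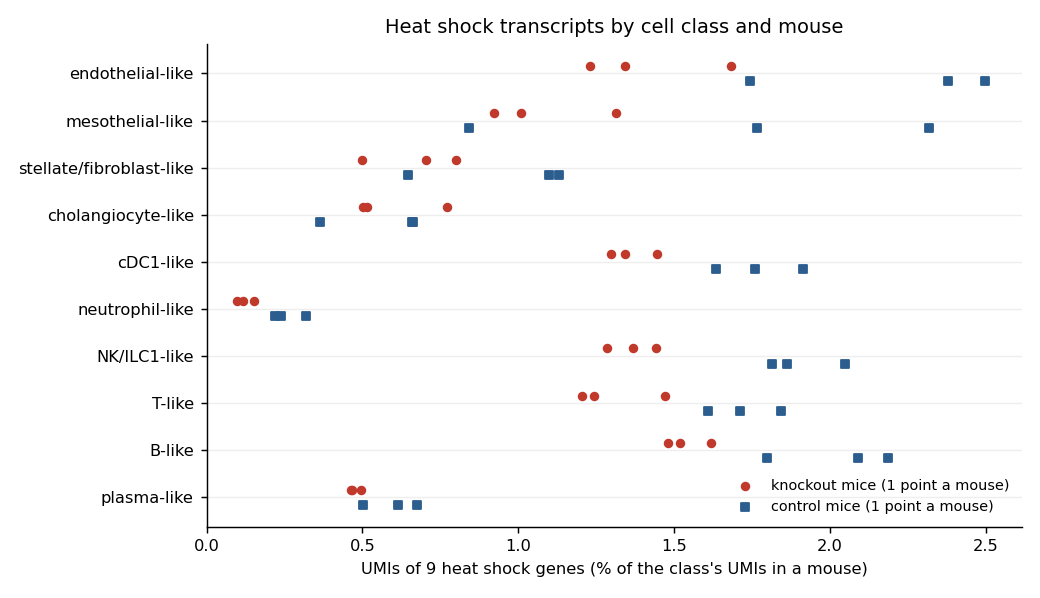
Share of UMIs from 9 heat shock genes (%) in each class, with 1 point a mouse, circles for knockout and squares for control mice. In endothelial-like cells it was 1.23% to 1.68% of UMIs in knockout mice, against 1.74% to 2.497% in controls, and knockout mice lay under the controls without overlap in 7 of the 10 classes.

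The pathway around the members was described with lists of 87 genes, some in more than 1 list. In endothelial-like cells edgeR called 0 of 80 tested list genes in either direction, with 21 at an unadjusted p under 0.05, and DESeq2 called 1. Of all genes tested in this class 6.67% had an unadjusted p under 0.05 and 48.5% were lower, which stand beside the counts of each list. Of the other MAPK phosphatases 4 of 7 were lower (median log2 fold change -0.23, 2 at an unadjusted p under 0.05), and of the kinases they act on or near, the MAP kinases and their activating kinases, 5 of 15 (median 0.07, 1). ERK feedback inhibitors and targets were lower in 12 of 14 (median -0.23, 3), and Spry2, a feedback inhibitor of receptor tyrosine kinase signalling, was at 29.0, 26.6 and 25.1 CPM in knockout mice, against 45.6, 60.2 and 33.3 CPM in controls (log2 fold change -0.78, SE 0.21). AP-1 and immediate early genes were lower in 18 of 19 (median -0.33, 7), among them the stress-induced factor Atf3 at -0.61 (SE 0.18) and Zfp36, which speeds decay of cytokine transcripts, at -0.48 (SE 0.19).

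Calcium, NFAT and T cell receptor activation genes were lower in 10 of 12 tested (median -0.46, 2 at an unadjusted p under 0.05), and Rcan1, a calcineurin inhibitor induced by NFAT, was at 78.3, 86.3 and 88.7 CPM in knockout mice, against 126, 118 and 106 CPM in controls (log2 fold change -0.46, SE 0.12). The cAMP/CREB targets were lower in 4 of 6 (median -0.12, 0) and the partners of Nr4a receptors in 0 of 2 (median 0.04, 0). Heat shock genes were lower in 9 of 9 (median -0.55, 7), with the chaperone Hspa1b at 2700.1, 3571 and 3284 CPM in knockout mice, against 4560.3, 7923 and 6891 CPM in controls (log2 fold change -1.02, SE 0.22). Over all genes tested in this class the median was 0.01. In the other classes edgeR called list genes in neutrophil-like cells only, where the chaperone genes Hspa1a, Hspa1b and Hspb1 and the transcription factor Klf4 fell, with log2 fold changes of -1.77 (SE 0.30), -2.22 (SE 0.37), -3.51 (SE 0.39) and -2.25 (SE 0.40). Each of the 4 was lower in every knockout mouse than in every control. List genes lower in knockout mice numbered 56 of 73 in cDC1-like, 69 of 83 in mesothelial-like, 42 of 55 in neutrophil-like, 54 of 83 in T-like, 52 of 79 in B-like, 49 of 76 in NK/ILC1-like, 39 of 69 in plasma-like, 46 of 83 in cholangiocyte-like and 53 of 67 in stellate/fibroblast-like cells. In B-like, T-like and NK/ILC1-like cells most list genes were thus lower while most of the 9 members were higher.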

How the data were processed

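The authors deposited raw UMI counts per gene and cell barcode for each mouse, without normalization; Cell Ranger 7.1.0, Seurat 4.1.1 and mm10 are named, per the submitters' processing notes, and the annotation release is not given in the sources used here. Gene coordinates were taken from GENCODE M21 (GRCm38) by Ensembl identifier and promoters from RefSeq (GRCm38.p6).

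Barcodes were kept where they had 300 or more genes and no more than 20% of UMIs from mitochondrial genes (42682 cells). Scrublet scores above 0.267, a common limit set after the scores were seen from the 4 libraries where the automatic limit worked, removed 938 doublets. Pairs of libraries shared 0.0974% to 0.328% of barcodes, and no library duplicated another. Counts scaled to 10000 per cell were log transformed, and 3000 variable genes, members left out, 40 components and 20 neighbours gave 34 Leiden clusters at resolution 1 (scanpy 1.11.5, leidenalg 0.10.2, Python 3.11.15). Clusters took a class name from marker lists by limits set after the scores were seen; 6 clusters (2454 cells) stayed unnamed.

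Raw counts were summed per mouse and class, so the mouse is the replicate. They were tested with edgeR 4.0.16 in R 4.3.3 (TMM, filterByExpr, quasi-likelihood F-test, Benjamini-Hochberg adjustment over all genes of a class, threshold 0.05), beside DESeq2 1.42.0. Standard errors were derived from the F statistic. The fits were tested on simulated data. All 9 members are named, with the most alike gene of each (of 3 computed). List genes of small p are named only for the ERK feedback, AP-1 and immediate early, calcium/NFAT and heat shock lists. All list genes named with a fold change were lower in knockout mice. The other lists are given as counts and medians. Members, lists and comparisons were chosen with earlier results of these data known. Depth sets the precision through the counts behind each sum, and UMI counts cover counting error only. Alternatives were DESeq2, no filter on low counts, the replicate number as a block, doublets kept, a mitochondrial limit of 10%, cells with markers of another class removed, clustering with the members, CPM by total UMIs, the endothelial-like class without cluster 26 (added after seeing the data) and each library left out.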

Additional observations from a re-analysis of the deposited data

Results flagged for a closer look

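Dusp10, the phosphatase of p38 and JNK, went in opposite directions in 2 classes, and edgeR called it in neither. In T-like cells it was at 178, 198 and 187 CPM in the 3 knockout mice, against 170.2, 159 and 152 CPM in the 3 controls, every knockout mouse above every control (log2 fold change 0.23). In mesothelial-like cells it was at 42.2, 44.6 and 43.0 CPM in the 3 knockout mice, against 50.5, 52.7 and 48.6 CPM in the 3 controls, every knockout mouse under every control (log2 fold change -0.23). In T-like cells 5.78% of genes tested were higher and 5.44% lower in every knockout mouse. These shares were 12.7% and 10.1% in mesothelial-like cells. Of the 9 members, 1 was lower in T-like and 9 were lower in mesothelial-like cells, so the opposite directions were not particular to Dusp10. The members were chosen with these contrasts known, and the difference between the classes was not tested. With 3 mice per group, single mice far from their group were not searched for.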

How the results depend on the processing

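Over 1132 values of a member's log2 fold change under the alternatives, 82 had another sign than the reported one, and 13 moved by more than the SD between mice, 9 of these with cells that carry markers of another class removed; Dusp2 in endothelial-like cells was then at -1.03 (SE 0.20), and at -0.32 (SE 0.23) without cluster 26. The number of members called, 0 in every class as reported, became 1 in cDC1-like cells without the filter on low counts (Dusp5, among 71 of 18344 genes, 0.387%) and 1 in endothelial-like cells by DESeq2 and without control replicate 3 (Dusp2 both times). Over the runs with 1 library left out it ranged from 0 to 1 in endothelial-like cells. For the members called different between endothelial-like and T-like cells it also ranged from 0 to 1, and the fit without a filter gave 1. The members were chosen with these contrasts known, so nothing is read from their calls. Pathway list genes called by DESeq2 numbered 1 in B-like, 3 in NK/ILC1-like, 2 in T-like, 1 in cDC1-like, 2 in cholangiocyte-like, 1 in endothelial-like and 8 in mesothelial-like cells, against 0 by edgeR. Over all genes fitted, DESeq2 called 12 of 20387 in B-like, 11 of 18339 in NK/ILC1-like and 24 of 22362 in T-like cells. It called 6 of 18344 in cDC1-like, 23 of 22220 in cholangiocyte-like, 13 of 20919 in endothelial-like and 286 of 22068 in mesothelial-like cells. Nothing is read from the list counts. Calls over all genes in endothelial-like cells were 0 as reported, 13 by DESeq2 and 79 without control replicate 3; the cause was not tested.

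With the replicate block, list genes called were 6 in B-like, 3 in NK/ILC1-like, 1 in cDC1-like and 6 in neutrophil-like cells, against 0, 0, 0 and 4 without it, and members called were 0 in every class. Calls over all genes rose too, to 53 of 11254 in B-like, 12 of 9673 in NK/ILC1-like and 10 of 9242 in cDC1-like cells. Without the block they were 0, 0 and 1. Over all cells, mice of the same number correlated at 0.0264, 0.227 and 0.405 in their deviations from the group means, and mice of different numbers at -0.69 to 0.55. Deviations of 3 mice from their own mean are tied to each other, so these values cannot decide whether the numbers mark pairs. The reported fits did not take the numbers as pairs. Removal of cells with markers of another class took most mesothelial-like cells, whose own genes are among those markers, so it says little there. Classes of few cells, and members at a few CPM such as Dusp4, limit what 3 mice per group can show.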
